A study of Drosophila melanogaster with 10 samples.

Results

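Full-length Nkd was compared with GFP in wing imaginal disks of Drosophila larvae late in the third instar, as RNA sequencing counts over all genes. In both groups the transgene was driven by MS1096-Gal4, which is active in the central pouch of the disk, so the remaining cells of each disk carry the driver without much expression. Control disks were MS1096 > GFP and the others MS1096 > Nkd_GFPC, whose Nkd carries GFP at its C end, so GFP is shared by both groups. Each group had 2 RNA samples of about 70 pooled disks from larvae kept at 25 °C, and each group stands for a single transgene line. The methods describe repeated outcrossing to a shared background for the Nkd transgene lines and do not mention it for the GFP line. The comparison holds 4 of the 10 libraries of the series and 9264 genes that passed the expression filter, of 14420 genes with a count and 17807 in the table. The other 6 libraries came from disks with Nkd_del_R1S, which lacks the Dishevelled binding region, and Nkd_del_30aa and Nkd_del_D6, which each lack a candidate nuclear localization signal. They entered the same fit to estimate the spread and are quoted only for levels side by side. Neither the labels nor the methods give the sex of the larvae. Each pair of samples is described as biological duplicates without a word on whether they came from separate crosses. The p-values set the group difference against a spread estimated over all 10 libraries, and whether that spread covers variation between crosses is not known.

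Wingless (Wg) is the Drosophila Wnt ligand that organizes the margin and the pouch of the wing disk. It binds Frizzled receptors with the co-receptor Arrow, Dishevelled relays the signal, Armadillo is spared from destruction, and Armadillo acts with the DNA-binding factor Pangolin on target genes. naked cuticle (nkd) is itself induced by Wg, and its product binds Dishevelled and dampens the pathway, so Nkd is known as a feedback antagonist of Wg.

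The libraries held 19909939 and 20581154 counts for GFP replicates 1 and 2, and 19260364 and 19224468 counts for Nkd replicates 1 and 2. All 13 listed wing disk markers, among them vg, nub and ap, had counts in each of the 4 libraries, and the eye genes ey, toy and gl stayed below 0.5 CPM (counts scaled to a common library size, normalized here by the trimmed mean of M values). The 2 samples of a group differed in markers of other tissues, whose sums are given in CPM scaled over all genes with no expression filter. The 17 listed salivary gland genes summed to 4972 and 677 CPM in GFP replicates 1 and 2, against 16855 and 245 CPM in Nkd replicates 1 and 2. lncRNA:roX1, a noncoding RNA of male dosage compensation, stood, on that scale, at 428 and 404 CPM in GFP disks and at 450 and 285 CPM in Nkd disks. In such whole-disk RNA, fewer cells of a type and less RNA per cell cannot be told apart.

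nkd (FBgn0002945, chromosome 3L from 19003741 to 19045449, BDGP6) was the check on the labels. It stood at 37.3 and 70.1 CPM in GFP replicates 1 and 2 and at 1141 and 1190 CPM in Nkd replicates 1 and 2. Both Nkd libraries were far above both GFP libraries, and the ratio between the libraries of a group was wider for GFP than for Nkd. The log2 fold change was 4.44 (standard error 0.37, adjusted p = 0.00696, edgeR). Counts per gene do not separate the transgene from the resident gene. Without Nkd replicate 2 the adjusted p was 0.0643 at a log2 change of 4.48, and in an edgeR fit of the 4 libraries alone it was 0.0976 at 4.49, so even the overexpressed gene is not called in those fits.

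A gene was called at a fold change above 1.5 and a Benjamini-Hochberg adjusted p under 0.05 in edgeR's quasi-likelihood test, and 283 genes (3.05% of those tested) were higher and 418 (4.51%) lower in Nkd disks, 7.57% in all. The 2 Nkd libraries lay above both GFP libraries for 28.2% of all genes tested and below both for 36.1%. The balance of the calls differed between fits: 40.4% of the calls were increases by this fit, against 67.6% with RLE normalization (497 higher and 238 lower), 71.4% without an expression filter, 74.1% with DESeq2 on all libraries, 66.8% with DESeq2 on the 4 libraries (7.44% of genes higher and 3.7% lower), and 63.9% once the salivary gland genes were left out. The median log2 fold change of all genes moved from -0.05 to 0.04 between the TMM and RLE scalings. All 701 called genes kept the sign of their log2 fold change under these alternatives. Leaving out a single library changed the calls far more. Without GFP replicate 1, 4 genes were higher and 6 lower, and without GFP replicate 2 the counts were 339 and 196. Without Nkd replicate 1 they were 43 and 14, and without Nkd replicate 2 they were 2 and 2, where a group's single remaining library took its spread from the other groups.

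The calls followed exon length. Of the 927 genes with the shortest exons (67 to 774 bases) 17.3% were called lower and 0.216% higher, and of the 927 with the longest (5619 to 71820 bases) 0.216% were lower and 15.3% higher. The median log2 fold change climbed in every step of 10 length bins, from -0.49 to 0.52. Each pairing of an Nkd with a GFP library showed this slope: in the shortest bin the 4 medians ran from -0.69 to -0.37, and in the longest from 0.26 to 0.75. The slope was also present between the GFP libraries, where replicate 1 minus replicate 2 went from 0.28 in the shortest bin to -0.26 in the longest. Between the Nkd libraries the same difference was -0.02 and -0.20. Length-related shifts between libraries of the same kind and a length-related shift between the groups therefore occur together, and what lies behind either was not tested. A second fit removed each library's smooth trend on exon length (gene length offsets). It called 22 genes higher (0.237%) and 34 lower (0.367%), and the rank correlation of log2 fold change with exon length across genes went from 0.55 to -0.02. Genes are not independent replicates, so these correlations are descriptions. Below, a value named as an offset value comes from that fit.

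**Figure D1:**
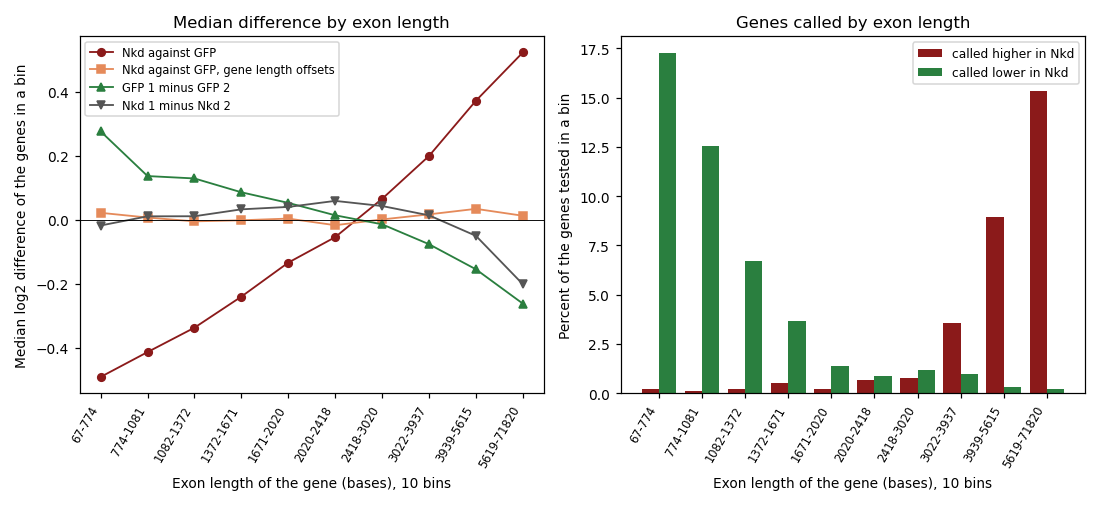
Genes tested were sorted by exon length into 10 bins. On the left, lines give the median log2 difference of the genes in a bin for Nkd against GFP, for the same comparison with gene length offsets, and for the 2 libraries within each group. On the right, bars give the percent of a bin called higher or lower in Nkd disks. The Nkd against GFP line climbs from -0.49 to 0.52, while the line with offsets stays between -0.02 and 0.03.

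Both fits called 40 genes, 17 higher and 23 lower. NaPi-III, which encodes a sodium-dependent phosphate transporter of the SLC20 kind (FBgn0260795, chromosome 3L from 11123348 to 11134663), stood at 31.3 and 28.0 CPM in GFP disks and at 110 and 135 CPM in Nkd disks. The groups did not overlap, and the log2 fold change was 2.05 (standard error 0.15, adjusted p = 0.00178 by edgeR, offset value 1.81). The ABC transporter gene FBgn0010549 (chromosome 2R from 9390165 to 9395281), went the other way, from 33.5 and 31.2 CPM to 7.34 and 8.97 CPM. Its log2 fold change was -1.99 (standard error 0.14, adjusted p = 0.00146, offset value -2.32). CG14715 (FBgn0037930, chromosome 3R from 11674221 to 11674923) fell from 61.3 and 55.2 CPM to 14.8 and 14.7 CPM, a log2 change of -1.98 (standard error 0.13, adjusted p = 0.00146, offset value -1.46). These 3 were the only genes called in all 4 fits that left out a library. Each was called in 14 of 15 alternative fits, the exception being edgeR on the 4 libraries alone, which called 0 genes in either direction but 579 higher and 435 lower at an unadjusted p under 0.05. Of the 40 genes, 8 were called without GFP replicate 1, 31 without GFP replicate 2, 18 without Nkd replicate 1 and 3 without Nkd replicate 2.

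**Figure D2:**
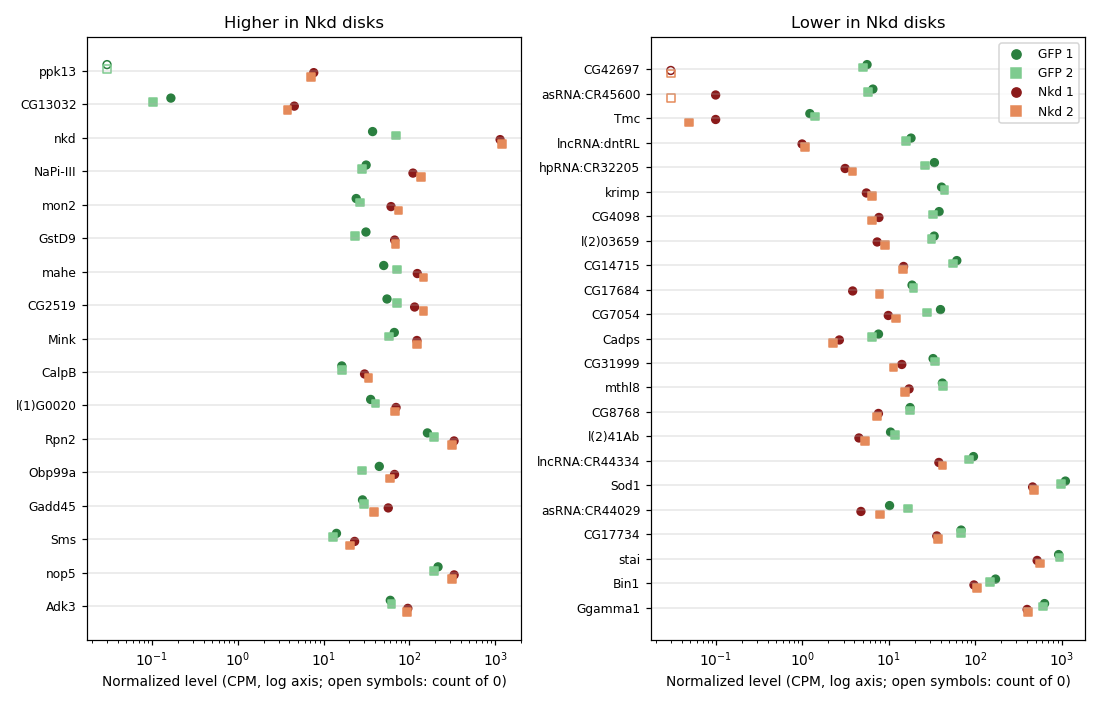
Levels of the 40 genes called with and without gene length offsets, in CPM on a log axis, with a symbol for each of the 4 libraries and open symbols at the left edge for a count of 0. For each gene both Nkd libraries lie on the same side of both GFP libraries, with the widest gaps at ppk13, which is at 0 in both GFP libraries, and at CG42697, which is at 0 in both Nkd libraries.

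A pair of adjacent genes was detected in Nkd disks and not in GFP disks. ppk13, of the pickpocket family of DEG/ENaC channels (FBgn0053508, chromosome 2L from 21086790 to 21088751), had 0 counts in both GFP libraries and 7.69 and 7.12 CPM in the Nkd libraries, 301 counts in all. Against a floor of 3 counts over the GFP group it was at least 92.4-fold higher (adjusted p = 0.0223, edgeR). The call was lost without GFP replicate 1 and without either Nkd replicate. CG33509, which ends at 21086506 on the same strand, also had 0 counts in GFP disks and stood at 3.87 and 4.29 CPM in Nkd disks (adjusted p = 0.0244). In the 6 libraries with the other Nkd forms ppk13 did not pass 0.0565 CPM and CG33509 was at 0 throughout. The next tested gene but one, FBgn0284251, was called higher as well (39.6 and 47.9 against 68.5 and 69.8 CPM), but it stood at 71.3 to 82.6 CPM in Nkd_del_30aa and Nkd_del_D6 disks. CG13032 on chromosome 3L had 3 and 2 counts in the GFP libraries and 92 and 78 in those of Nkd, a log2 change of 4.90 (standard error 0.61, adjusted p = 0.0148). It was also present in Nkd_del_R1S disks (5.25 and 3.22 CPM) and under 0.2 CPM in the other forms.

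The other increases that both fits called had varied roles. mon2, whose product acts in trafficking at the Golgi and endosomes, stood at 24.02 and 26.6 CPM in GFP disks against 61.2 and 74.9 CPM in Nkd disks (log2 fold change 1.42, standard error 0.15, adjusted p = 0.0100 by edgeR). GstD9, a glutathione S-transferase gene, went from 31.2 and 23.1 CPM to 67.4 and 68.9 CPM (1.33, standard error 0.16, adjusted p = 0.0123, offset value 1.82). The Nkd values of GstD9 agree closely with each other, and all 6 libraries of the other Nkd forms lay between 15.9 and 31.8 CPM. mahe, a putative RNA helicase gene, stood at 50.3 and 71.4 against 124 and 146 CPM. nop5, which encodes a core protein of box C/D small nucleolar ribonucleoproteins, stood at 216 and 195 against 332 and 312 CPM, a log2 change of 0.65. Rpn2, a subunit of the proteasome cap, rose by 0.85 and CalpB, a calpain protease, by 0.96 on the log2 scale. Adk3, an adenylate kinase gene, rose by 0.63 and Sms, the spermine synthase gene, by 0.69 on that scale. Adk3 lies 3384 bases from Gadd45, the next increase on chromosome 2R (0.71). Mink, CG2519, l(1)G0020 and Obp99a, an odorant binding protein gene, complete the 17. For CalpB and Mink, 33.4% and 27.1% of the exonic bases are also covered by an antisense gene. Whether the counting used strand is not stated, so those counts may hold reads of the partner.

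Among the decreases that both fits called were krimp and the hairpin RNA gene hpRNA:CR32205, both on the list of small RNA pathways. krimp, whose Tudor-domain protein is a component of nuage in the piRNA pathway of the germline (FBgn0034098, chromosome 2R from 16238103 to 16240722), stood at 40.8 and 44.3 CPM in GFP disks against 5.51 and 6.39 CPM in Nkd disks. The log2 fold change was -2.84 (standard error 0.28, adjusted p = 0.00877 by edgeR, offset value -2.87). The call was lost without Nkd replicate 2. hpRNA:CR32205 (chromosome 3L from 19420390 to 19424183), fell from 33.7 and 26.4 CPM to 3.12 and 3.80 CPM, a log2 change of -3.12 (standard error 0.35, adjusted p = 0.0105). hpRNA:CR32207 (103 and 82.0 against 26.2 and 31.3 CPM) and hpRNA:CR33940 (60.6 and 39.6 against 12.9 and 13.3 CPM) lie farther along the same arm, from 19477329 and from 19486745, and were called lower as well. With offsets their log2 fold changes were -1.32 and -1.52, and they were not called, at adjusted p of 0.0699 and 0.0634. An antisense gene covers 28.1% and 41.2% of their exonic bases. Of 35 tested genes on a list of piRNA and other small RNA pathways, krimp and these 3 hairpin RNA genes were lower, and Dcr-1, the microRNA-processing Dicer, was higher (16.0 and 16.3 against 24.01 and 30.5 CPM). Of all genes tested 4.51% were lower and 3.05% higher. With offsets 3 members were lower: krimp, hpRNA:CR32205 and hpRNA:CR46342, which was not called without them. hpRNA:CR46342 stood at 23.8 and 22.5 against 15.9 and 15.7 CPM (offset value -1.01, adjusted p = 0.0185 by edgeR). The median log2 value of the list was -0.17, against -0.05 for all genes tested. Its 4 decreases became 1 without GFP replicate 1, 2 without Nkd replicate 1 and 0 without Nkd replicate 2. piwi stood at 3.77 and 3.55 against 2.98 and 2.53 CPM (adjusted p = 0.39) and AGO3 at 4.38 and 4.84 against 2.13 and 2.39 CPM (adjusted p = 0.061), so neither passed the test.

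Sod1, the cytosolic copper-zinc superoxide dismutase (chromosome 3L from 11112281 to 11113740), stood at 1107 and 979 CPM in GFP disks against 462 and 478 CPM in Nkd disks, a log2 change of -1.15 (standard error 0.12, adjusted p = 0.00921 by edgeR). With offsets the value was -0.65 and the adjusted p 0.0106. The call was lost without GFP replicate 1 or Nkd replicate 2. Sod1 lies 9607 bases from NaPi-III with 3 tested genes between them, so a decrease and an increase sit side by side on that arm. Sod3, the extracellular superoxide dismutase, fell by 0.66 on the log2 scale (358 and 331 against 215 and 220 CPM, adjusted p = 0.0209), and maf-S, the small Maf partner of the stress factor Cnc, fell by 0.99 (184 and 133 against 76.9 and 82.4 CPM, adjusted p = 0.0226). Sod2, the mitochondrial enzyme, at 279 and 233 against 176 and 190 CPM, stayed under the fold threshold, and Cat, the catalase gene, did not pass the test (338 and 390 against 347 and 296 CPM, adjusted p = 0.30). In all, 3 of 24 tested genes of oxidative stress and detoxification were lower and 0 higher, with a median of -0.19. Over all genes tested 4.51% were lower and 3.05% higher, with a median of -0.05. Only Sod1 among them was called with offsets, and 0 were called without GFP replicate 1 or without Nkd replicate 2, against 1 without Nkd replicate 1.

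Glutathione S-transferase genes split. GstD9 was higher, while GstE5 (11.98 and 8.86 against 3.62 and 3.46 CPM), GstE1, GstD1 and GstO1 were lower, 1 and 4 of 29 tested. Of all genes tested 3.05% were higher and 4.51% lower, and in the bins of shortest exons 17.3% and 12.5% were lower. The median exon length of the 29 genes was 887 bases. GstD9 and GstD1 are neighbours on chromosome 3R, and GstD1 stood at 1802 and 1434 CPM in GFP disks against 1020 and 1012 CPM in Nkd disks, a log2 change of -0.67 (standard error 0.13, adjusted p = 0.0238, edgeR). Further members in the same cluster did not pass the test, for example GstD3 at 97.9 and 70.4 against 64.8 and 68.6 CPM. With offsets the increase of GstD9 was called and the 4 decreases were not, and the median of the group moved from -0.33 to -0.001. Without GFP replicate 1 or Nkd replicate 1 GstD9 was the only member called, and without Nkd replicate 2 there was none.

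Further decreases called by both fits spanned several roles. lncRNA:dntRL, a noncoding gene of chromosome 2R, stood at 18.1 and 15.7 CPM in GFP disks and at 0.992 and 1.07 CPM in Nkd disks, and at 0.847 CPM or less in all 6 libraries of the other Nkd forms. CG42697, which had 199 counts in the GFP libraries and 0 in those of Nkd, was at least 72.2-fold lower against a floor of 3 counts over the group. It did not pass 0.233 CPM in any other library with an Nkd form. CG42697 was called in 8 of 15 alternative fits and in neither DESeq2 fit, and its adjusted p with offsets was 0.0493 (edgeR). lncRNA:dntRL was called in 11 of the 15. Both genes thus separated the GFP libraries from all 8 libraries with a form of Nkd. Outcrossing to a shared background is described for the Nkd lines only, and whether line background plays a part was not tested. mthl8, which encodes a Methuselah-like receptor, stood at 41.7 and 42.1 against 17.2 and 15.4 CPM (log2 fold change -1.36, standard error 0.12, adjusted p = 0.00355, edgeR). The other Nkd forms held mthl8 at 26.2 to 42.6 CPM, above both Nkd libraries. stai, the stathmin gene that acts on microtubules, fell by 0.79, and Ggamma1, a G protein gamma subunit, by 0.62 on the log2 scale. Bin1, the SAP18 homolog found with histone deacetylase complexes, fell by 0.66. Of 15 alternative fits, 9 called stai, 4 called Ggamma1 and 6 called Bin1. asRNA:CR45600 on chromosome 3R had 118 and 111 counts in the GFP libraries and 2 and 0 in those of Nkd, and shares 63.0% of its exonic bases with an antisense gene. Its neighbour on the same strand, CG6912, overlaps it at the end and was lower too (6.44 and 5.77 against 0.496 and 0 CPM, adjusted p = 0.0301). Tmc, a transmembrane channel-like gene that in flies is known from mechanosensory neurons, had 22 and 27 counts in the GFP libraries and 2 and 1 in those of Nkd, against 17 to 85 counts in the other 6 libraries. It was called in 9 of 15 alternative fits and in neither DESeq2 fit.

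Some decreases lay at the base of chromosome arms or on the small chromosome 4. l(2)41Ab (10.5 and 11.7 against 4.51 and 5.26 CPM) and CG17684 (18.6 and 19.3 against 3.82 and 7.80 CPM) lie 422144 bases apart near the start of chromosome 2R. lncRNA:CR44043, inside the span of l(2)41Ab, was higher instead, at 0.388 and 0.103 CPM in GFP disks and 2.53 and 4.34 CPM in Nkd disks. On chromosome 4, where the median exon length was 4174 bases, 6 of 82 genes tested were lower and 1 higher. The shares of all genes tested were 4.51% and 3.05%. With offsets 4 were lower, against 0.367% of all genes tested, but they included unc-13, which was not called without offsets (log2 fold change -0.01). Called lower there by both fits were Cadps, a calcium-dependent activator of secretion (7.60 and 6.44 against 2.68 and 2.24 CPM), CG31999 (32.6 and 34.3 against 14.1 and 11.3 CPM) and asRNA:CR44029. asRNA:CR44029 lies inside the span of unc-13 on the other strand and shares 11.7% of its exonic bases with an antisense gene, so these 2 calls may not be separate. It was called in 6 of 15 alternative fits (adjusted p = 0.102 with DESeq2 on the 4 libraries), and Cadps and CG31999 in 10 each. By arm, the share called lower was 2.48% on the X chromosome and between 3.998% and 5.81% on 2L, 2R, 3L and 3R. The share called higher was between 2.89% and 3.33% on these 5 arms. The median exon length of tested genes was 2297.5 bases on the X chromosome, the longest of the 5, and with offsets 3 of 1530 X-linked genes were lower. Of 263 noncoding RNA genes tested, 2 were higher and 16 lower, against 3.05% and 4.51% of all genes tested. Their median exon length was 999 bases and their median log2 fold change -0.32. With offsets that median was -0.04, and 0 were higher and 6 lower.

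The Wg pathway was read by role. Its counts stand beside the 3.05% of all genes tested that were higher, and 8.96% and 15.3% in the bins of longest exons. Of 10 tested genes for Wnt ligands and their secretion, 0 passed the test. wg itself stood at 71.9 and 91.1 CPM in GFP disks against 94.1 and 90.2 CPM in Nkd disks (adjusted p = 0.46, edgeR), and wls, the Wnt sorting receptor, at 133 and 150 against 164 and 165 CPM. Of 11 receptors and co-receptors, 1 was higher. arr, the LRP5/6 co-receptor (FBgn0000119, chromosome 2R from 13453640 to 13483229), stood at 79.5 and 92.6 against 169 and 171 CPM, a log2 change of 0.98 (standard error 0.14, adjusted p = 0.0218). With offsets arr was at 0.55, just under the fold threshold, with an adjusted p of 0.0266. fz2, a Wg receptor, stood at 435 and 500 against 609 and 594 CPM (adjusted p = 0.052). The glypican genes dally (89.9 and 118 against 153 and 170 CPM, adjusted p = 0.065) and dlp (42.2 and 57.4 against 73.1 and 84.8 CPM, adjusted p = 0.058) did not pass the test either. For dally and dlp both Nkd libraries were above both GFP libraries, as they were for 28.2% of all genes tested. Of 12 genes of cytoplasmic transduction 0 were called. Apc2, of the destruction complex, passed the test but stayed under the fold threshold (38.8 and 39.1 against 59.0 and 57.2 CPM, adjusted p = 0.0389). arm was at 1445 and 1434 against 1420 and 1476 CPM and dsh at 77.4 and 84.0 against 87.5 and 81.1 CPM. Of 12 genes on a list of nuclear factors, 3 were higher, of which only pan encodes a DNA-binding factor of the pathway. The median exon length of that list was 5541 bases. The 3 genes were pan, the TCF factor (55.5 and 68.9 against 102 and 91.5 CPM, 0.64), sina (40.7 and 46.9 against 63.7 and 72.6 CPM, 0.64) and Pka-C1, a protein kinase A catalytic subunit (31.7 and 42.6 against 58.2 and 69.3 CPM, 0.78).

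Of 12 genes known as Wg targets or feedback regulators, nkd and Myc were higher and 0 were lower. Over all genes tested 3.05% were higher and 4.51% lower, and with DESeq2 on the 4 libraries 7.44% and 3.7%. Myc, the growth-promoting transcription factor, stood at 30.5 and 45.6 CPM in GFP disks and at 78.7 and 74.7 CPM in Nkd disks, a log2 change of 1.01 (standard error 0.18, adjusted p = 0.0231, edgeR) with an offset value of 0.49. An antisense gene covers 40.9% of its exonic bases. fz3, a Frizzled gene that Wg induces, stood at 77.2 and 64.5 against 64.2 and 62.7 CPM (adjusted p = 0.46). Notum, the secreted Wnt deacylase, was at 18.1 and 21.8 against 25.4 and 26.6 CPM (adjusted p = 0.25). Dll and vg, genes of the distal wing, and sens, a gene of margin sensory precursors, did not pass the test (adjusted p = 0.65, 0.93 and 0.46). The proneural gene ac was at 38.7 and 29.6 against 23.9 and 23.1 CPM (adjusted p = 0.072). The medians of the 5 Wg groups were 0.14, 0.36, 0.25, 0.46 and 0.24 in the order given, and 0.07, 0.05, -0.13, -0.01 and -0.03 with offsets, where nkd was their only call. Without GFP replicate 1 or Nkd replicate 1, 1 gene was called in the 5 groups, and without Nkd replicate 2 none was. Without GFP replicate 2 the groups had 0, 1, 1, 4 and 3 genes higher, and with DESeq2 on the 4 libraries 0, 3, 1, 6 and 3.

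The study's lists under Wnt, Notch, Hippo and MAPK signalling hold genes it found differentially expressed between these same Nkd and GFP samples. Members were thus listed because they had been called, so counts of calls over these lists are no independent evidence of a change or of its direction. Over all genes tested 3.05% were higher and 4.51% lower, and with DESeq2 on the 4 libraries 7.44% and 3.7%. The Wnt list had 6 of 11 genes higher, nkd included, the Notch list 2 of 6 higher and 1 lower, the Hippo list 6 of 11 higher and 1 lower, and the MAPK list 4 of 11 higher. With DESeq2 on the 4 libraries 10, 4, 10 and 11 were higher, and 1 gene each of the Notch and Hippo lists was lower. Without GFP replicate 2, 7, 4, 5 and 7 of these lists' genes were higher and 0 were lower. Without GFP replicate 1 the counts were 1, 0, 0 and 0, without Nkd replicate 1 they were 1, 0, 1 and 0, and without Nkd replicate 2 all 4 were 0. CBP, in 2 of the lists, was matched by its symbol, which in this annotation is a sarcoplasmic calcium-binding protein gene, and did not pass the test (303 and 337 against 285 and 242 CPM). Besides nkd, 0 of the genes on these lists were called with offsets.

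**Figure D3:**
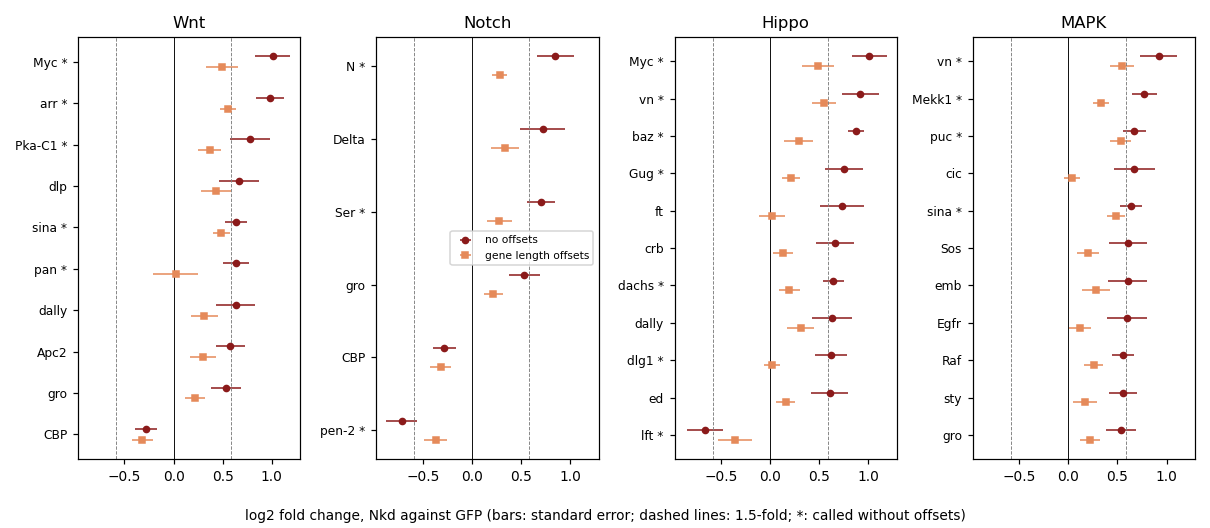
log2 fold changes of Nkd against GFP for the genes the study listed under 4 pathways, with standard errors, without and with gene length offsets. nkd, at 4.44, is left off the scale, asterisks mark genes called without offsets, and dashed lines mark 1.5-fold in either direction. The values with offsets lie closer to 0 than those without for all genes drawn but CBP.

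On a wider list of Notch pathway genes, Notch and its ligand gene Ser were higher among 19 tested and pen-2, a gamma-secretase subunit, was lower. Of all genes tested 3.05% were higher and 4.51% lower, and with DESeq2 on the 4 libraries 7.44% and 3.7%. N stood at 118 and 157 CPM in GFP disks against 220 and 276 CPM in Nkd disks (log2 fold change 0.85, standard error 0.19, adjusted p = 0.0294, edgeR), and Ser at 111 and 118 against 201 and 171 CPM. For pen-2 (52.9 and 47.8 against 27.9 and 33.5 CPM), 47.8% of the exonic bases are shared with an antisense gene. Of 16 Notch target genes, most of them short genes of the Enhancer of split complex, 0 were called, and E(spl)m2-BFM passed the test but not the fold threshold. The median of the targets was -0.30 and that of the pathway 0.31, and with offsets they were 0.06 and 0.07. With DESeq2 on the 4 libraries 5 pathway genes were higher and 1 lower. Without GFP replicate 2, 5 pathway genes were higher and 0 lower, and without any other of the 4 libraries 0 were called. The median exon length was 997.5 bases for the targets and 4309 bases for the pathway.

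In the Hippo pathway, which restrains growth through Yorkie, kibra (6.99 and 9.12 against 12.3 and 17.5 CPM), Gug, the Atrophin corepressor, and dachs, the myosin of Fat signalling, were higher and lft, a Fat pathway gene, was lower among 28 tested. dachs stood at 264 and 255 CPM in GFP disks and at 406 and 403 CPM in Nkd disks, with a log2 change of 0.64 (standard error 0.11, adjusted p = 0.0226, edgeR) and an offset value of 0.20. ft, the large protocadherin gene upstream of dachs, did not pass the test (72.8 and 82.0 against 100 and 157 CPM, adjusted p = 0.0593). Among 25 EGFR and MAPK genes, vn, Mekk1 and pnt were higher and 0 were lower, against 12 higher with DESeq2 on the 4 libraries. The median exon length of these 25 genes was 5434 bases. Over all genes tested 3.05% were higher and 4.51% lower, and 7.44% were higher with DESeq2 on the 4 libraries. In the bins of longest exons 8.96% and 15.3% were higher. vn, an EGF receptor ligand of wing veins, stood at 13.6 and 19.8 against 31.6 and 31.8 CPM, with an offset value of 0.54 (adjusted p = 0.0798). Egfr itself was at 88.9 and 114 against 133 and 173 CPM (adjusted p = 0.0759). puc, the JNK phosphatase and a JNK target, was higher (22.7 and 22.4 against 39.4 and 32.6 CPM), while the other JNK target genes Mmp1 (25.8 and 33.3 against 31.1 and 31.1 CPM) and Ilp8, which was under 1 CPM in all 4 libraries, did not pass the test. DESeq2 on the 4 libraries had 7 Hippo pathway genes higher. In the Hippo, EGFR and MAPK, and JNK lists 0 genes were called without GFP replicate 1, Nkd replicate 1 or Nkd replicate 2, while 7 EGFR and MAPK genes were higher without GFP replicate 2.

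On lists of patterning, polarity and guidance genes the calls were increases, to be read beside the 3.05% of all genes tested that were higher and the 8.96% and 15.3% in the 2 bins of longest exons. salr and the BMP receptor gene wit were higher among 19 Dpp pathway genes. ptc, the Hedgehog receptor (54.0 and 56.4 against 86.5 and 86.4 CPM, log2 fold change 0.65, standard error 0.11, adjusted p = 0.0231 by edgeR), the co-receptor boi (106 and 104 against 172 and 164 CPM) and disp, which releases Hedgehog from cells, were higher among 15 Hedgehog genes. Of 14 pouch genes, salr (49.5 and 56.6 against 75.4 and 110 CPM) and dve (19.3 and 23.2 against 38.04 and 33.4 CPM) were higher, while the pouch genes nub, rn and sd did not pass the test (adjusted p = 0.21, 0.11 and 0.27). Among 18 vein genes vn, N, salr and ab were higher. The polarity genes baz (44.1 and 45.3 against 81.4 and 82.7 CPM), shg, the E-cadherin gene, and dlg1 were higher among 19. Among 26 axon guidance genes the Slit receptors robo1 and robo2 and their ligand gene sli were higher. Ubx, the homeotic gene of the haltere disk, was also higher, at 6.49 and 3.92 CPM in GFP disks against 11.95 and 9.65 CPM in Nkd disks (log2 fold change 1.05, adjusted p = 0.0392). It stood at 8.88 to 14.7 CPM in the other Nkd forms. With DESeq2 on the 4 libraries 4 Dpp, 3 Hedgehog, 2 pouch, 6 vein, 6 polarity and 5 guidance genes were higher. With offsets 0 of the genes in this paragraph were called, and without Nkd replicate 2 none was called either. Without GFP replicate 1 the lists of this paragraph held 0 calls, and without Nkd replicate 1 at most 1 each.

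The calls on lists of chromatin genes were increases too, and stand beside the same background shares. Of 24 nucleosome remodeler genes 4 were higher, led by E(bx), the large subunit of NURF (67.7 and 85.1 against 132 and 184 CPM), and dom (123 and 132 against 181 and 290 CPM). All 4 Polycomb and trithorax group calls of 32 genes tested were increases, namely Jarid2, trr, ash1 and E(Pc). Of 18 condensin and cohesin genes, 7 were higher and 0 lower. They were the condensin genes Cap-D2, Cap-G, SMC2, Cap-H2 and Cap-D3 and the cohesin genes SMC3 and wapl. Cap-D2 stood at 47.0 and 50.4 CPM in GFP disks and at 79.7 and 96.3 CPM in Nkd disks (log2 fold change 0.85, standard error 0.20, adjusted p = 0.0301, edgeR). SMC1 (118 and 123 against 129 and 142 CPM) and vtd, the kleisin of cohesin (126 and 132 against 105 and 102 CPM), did not pass the test. With DESeq2 on the 4 libraries 11 remodeler, 8 Polycomb and trithorax and 7 condensin and cohesin genes were higher. The median exon lengths of the 3 groups were 5099, 5840.5 and 3972 bases. With offsets their medians were 0.09, 0.09 and 0.15, against 0.51, 0.44 and 0.39 without, and 0 members were called. Of the condensin and cohesin genes, 2 were higher without GFP replicate 2 and 0 without any other of the 4 libraries. The remodeler and Polycomb and trithorax groups kept a count of 4 without GFP replicate 2 and had 0 or 1 without another library. Mediator and elongation genes split: MED23, lilli, Cdk12, Nelf-A and Spt6 were higher, and the short genes MED11 (88.3 and 81.8 against 48.4 and 54.4 CPM) and MED7 were lower, of 29 tested. With offsets none of these 7 was called, and CycK, the cyclin partner of Cdk12, was lower instead. Of 47 cell cycle genes only mei-41, the ATR kinase gene, was called (11.1 and 10.8 against 14.2 and 18.7 CPM).

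Genes of translation and respiration lay on the lower side. Of 86 cytoplasmic ribosomal protein genes 31 were lower and 0 higher, and for 82 both Nkd libraries were below both GFP libraries. Over all genes tested 4.51% were lower and 36.1% lay below in both libraries, and in the bin of shortest exons 17.3% were lower. RpL29 stood at 3244 and 2556 CPM in GFP disks against 1511 and 1583 CPM in Nkd disks (log2 fold change -0.91, standard error 0.13, adjusted p = 0.0223, edgeR). Mitochondrial ribosomal proteins had 14 of 71 genes lower and 0 higher, among them mRpS17 (74.5 and 54.0 against 31.6 and 38.02 CPM). Complex I had 8 of 33 lower and complexes III to V 6 of 29, again with 0 higher. The medians were -0.54, -0.46, -0.45 and -0.46. These are short genes, with median exon lengths of 921.5, 783, 844 and 853 bases, and with offsets the medians were -0.12, -0.01, -0.06 and -0.08 with 0 calls. In the same order, 16, 13, 9 and 6 members were lower without GFP replicate 2, and 0 without any of the other libraries. With DESeq2 on the 4 libraries 22, 9, 6 and 2 were lower. For the summed level of the cytoplasmic group the groups did not overlap: it was 355377 and 318416 CPM in GFP disks and 233528 and 231789 CPM in Nkd disks. Subunits of the proteasome had a median of -0.23 without and 0.15 with offsets, and Rpn2 was the only one called among 32. Of 20 growth and TOR genes 3 were higher, InR, the insulin receptor (7.93 and 12.5 against 23.1 and 27.4 CPM), Myc and Pi3K92E, the catalytic PI3-kinase subunit (30.3 and 39.1 against 52.8 and 69.0 CPM). The share of all genes tested that were higher was 3.05%. The median exon length of the 20 genes was 4343 bases, and 8.96% were higher in the bin of 3939 to 5615 bases. With offsets 0 of the 20 were called, and their median went from 0.44 to 0.12. Rheb, an activator of TOR, stood at 90.7 and 98.4 against 67.2 and 62.0 CPM, under the fold threshold. Xrp1, a stress factor gene known from cell competition, was higher (97.7 and 117 against 170 and 200 CPM), and its partner gene Irbp18 was lower (58.1 and 43.3 against 29.4 and 29.0 CPM). Neither was called with offsets, and without GFP replicate 1, Nkd replicate 1 or Nkd replicate 2 none of the growth or cell death genes was called.

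**Figure D4:**
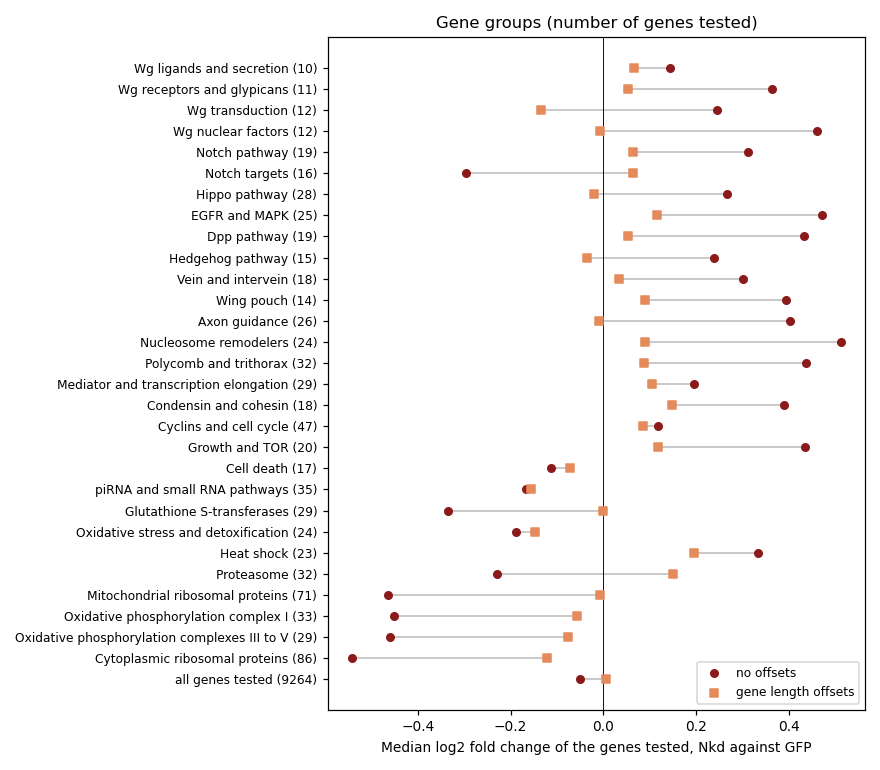
Median log2 fold change, Nkd against GFP, of the genes tested in 29 gene groups and of all genes tested, without (circles) and with (squares) gene length offsets, with the number of genes tested in brackets. The groups spread from -0.54 for cytoplasmic ribosomal proteins to 0.51 for nucleosome remodelers without offsets, and from -0.15 to 0.20 with them.

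The salivary gland transcripts separated the samples within a group more than the groups. Sgs7, a glue protein gene, stood at 1388 and 197 CPM in GFP replicates 1 and 2 and at 5180 and 56.8 CPM in Nkd replicates 1 and 2. Nkd replicate 1 was the highest and Nkd replicate 2 the lowest of the 4, so the groups overlapped, and its log2 fold change was 1.72 with a standard error of 2.05 (adjusted p = 0.60, edgeR). Sgs5 (1686 and 143 against 4576 and 39.5 CPM), Sgs8 (898 and 145 against 3810 and 51.2 CPM) and Eig71Ee (662 and 46.3 against 982 and 8.04 CPM) had the same order of libraries. Of 15 tested genes of the salivary gland list, 0 were called in either direction, and 0 passed at an unadjusted p under 0.05. Gut proteases followed the same Nkd libraries with another order of the GFP libraries: the 17 listed gut genes summed to 351 and 1011 CPM in GFP disks against 3888 and 21.6 CPM in Nkd disks. Fat body genes summed to 3460 and 1368 against 3957 and 1284 CPM. With the summed salivary gland level of each library as a covariate, 692 of the 701 calls remained and the counts were 490 higher and 454 lower. With that covariate and gene length offsets together the counts were 32 and 48, and all 40 genes called by both fits above remained. Leaving the list out of the table altogether kept 535 of the 701 calls.

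**Figure D5:**
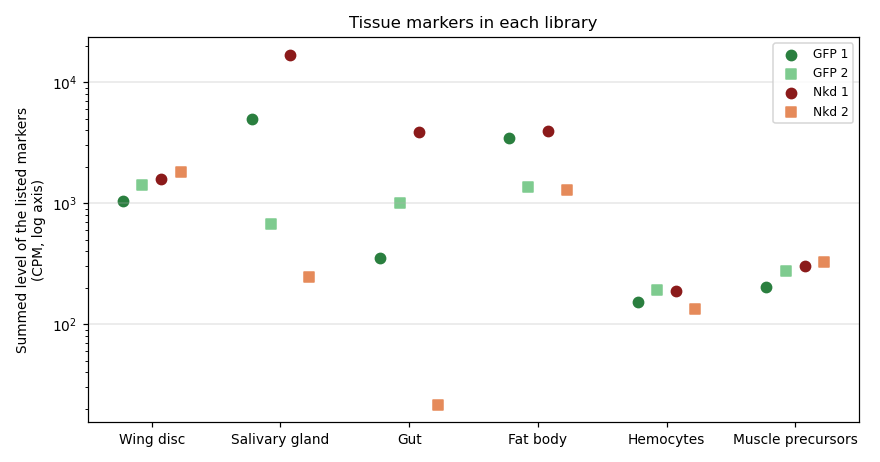
Summed levels of listed marker genes of 6 tissues in each of the 4 libraries, in CPM scaled over all genes, on a log axis. Salivary gland markers range from 245 CPM in Nkd replicate 2 to 16855 CPM in Nkd replicate 1, while wing disk markers range from 1037 CPM in GFP replicate 1 to 1794 CPM in Nkd replicate 2.

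Levels of the leading genes in disks with the other Nkd forms can be set beside these values, though all comparisons with GFP share the same 2 GFP libraries, so no test of likeness is given. nkd stood at 345 and 512 CPM in Nkd_del_R1S disks, 1176 and 1498 CPM in Nkd_del_30aa disks and 1349 and 993 CPM in Nkd_del_D6 disks, so the R1S libraries had the lowest level of the overexpressed gene. NaPi-III was at 44.7 to 83.2 CPM in the 6 libraries, above both GFP and below both Nkd libraries in each. FBgn0010549 was at 8.53 and 8.54 CPM in Nkd_del_R1S disks, within the range of the Nkd libraries, and at 13.6 to 19.5 CPM in the other forms. krimp was at 48.3 and 27.8 CPM in Nkd_del_R1S disks, which spans the range of the GFP libraries, and at 2.80 to 4.08 CPM in the Nkd_del_30aa and Nkd_del_D6 libraries, below both Nkd libraries. CG14715 was at 65.0 and 52.2 CPM in Nkd_del_R1S disks and at 38.9 to 41.6 CPM in the other forms, in each case above the 14.8 and 14.7 CPM of full-length Nkd. Sod1 was at 431 to 668 CPM in all 6 libraries, below both GFP libraries.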

How the data were processed

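RNA from pooled wing disks of 10 samples in 5 groups was sequenced, and the authors aligned reads with HISAT2 2.2.1 to BDGP6 and counted them per gene with featureCounts (version and strand setting not given in the sources used here). Deposited values are raw counts per gene, with exon length in a column of its own. Totals ran from 18695697 to 20941842 counts per library. Genes were named from a RefSeq gene table, which matched 17710 of 17807 IDs, and the 97 others held 0.367% to 0.544% of the counts.

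All 10 libraries entered 1 fit in edgeR 4.0.16 (R 4.3.3): filterByExpr by group, TMM normalization and the robust quasi-likelihood test, with Benjamini-Hochberg adjustment over 9264 genes. The standard error is the log2 fold change divided by the square root of F. Levels of genes are CPM, TMM-normalized over the genes tested, and sums of tissue markers, the eye genes and lncRNA:roX1 are CPM normalized over all genes. For gene length offsets, log2 CPM (prior count 2) was taken as each library's deviation from the mean over the 10 libraries. The lowess trend (span 0.3) of that deviation on log exon length was subtracted. Alternatives were RLE, no filter, DESeq2 1.42.0, the 4 libraries alone, a replicate block, a salivary gland covariate, the table without salivary gland genes, and leaving out each replicate. Scripts were tested on simulated data.

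The genes named are nkd, the study's pathway genes, the 10 largest changes in each direction among called genes of at least 5 CPM whose groups do not overlap and among genes called with and without offsets, the 4 largest called members of each of 58 lists and of noncoding genes in each direction, and 6 salivary gland genes. Neighbours of these, members named for not passing the test, and further genes called by both fits were chosen after their values were seen. FBgn0010549 and FBgn0284251 are given by identifier. The members and lists were chosen with earlier results of these data known. No comparison columns of the authors were used. For well-detected genes a single library's counts are precise at this depth, so the number of samples limits precision there. Genes at a few counts are limited by counting as well.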

Additional observations from a re-analysis of the deposited data

How the results depend on the processing

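With 283 genes higher and 418 lower as reported, the counts were 497 and 238 with RLE normalization, 476 and 191 with no filter, 793 and 277 with DESeq2 on all libraries, 531 and 264 with DESeq2 on the 4 libraries, 0 and 0 with edgeR on the 4 libraries, 22 and 34 with gene length offsets, 490 and 454 with the salivary gland covariate, 32 and 48 with that covariate and the offsets, and 447 and 252 without the salivary gland list. By adjusted p alone they were 553 and 938, and by unadjusted p with the fold threshold 595 and 601. Leaving out each replicate gave 2 to 339 higher and 2 to 196 lower. The cause of these shifts was not tested. For nkd, leaving out a replicate gave log2 fold changes from 4.05 to 5.09. It was not called without Nkd replicate 2 (4.48) or with edgeR on the 4 libraries (4.49). The log2 fold change of pan, 0.64, was -0.021 with the salivary gland covariate and gene length offsets together.

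Neither the labels nor the methods say what a shared replicate number stands for: deviations of same-numbered GFP and Nkd libraries correlated at 0.243, and those of other pairs of groups at -0.223 to 0.374. With the replicate block 252 genes were higher and 358 lower, 579 of the 701 calls remained and nkd stood at 4.48. With the block and gene length offsets the counts were 18 and 20.

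Of the 40 genes called with and without offsets, 37 were called with RLE normalization, 34 with DESeq2 on all libraries and 27 with the block and the offsets. With 2 samples a group, differences under 1.5-fold and genes at a few counts, such as CG13032 in GFP disks, are poorly resolved.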

Other observations

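Genes that differed more than 8-fold between the 2 Nkd libraries ran mostly one way. Nkd replicate 1 was above Nkd replicate 2 for 275 tested genes and below it for 6, and GFP replicate 1 was above GFP replicate 2 for 98 and below it for 21. In 38 genes replicate 1 was above replicate 2 in both groups. None of these genes was called. Jon65Aiv, a gut serine protease gene, stood at 1973 and 6.97 CPM in Nkd replicates 1 and 2. The heat shock gene Hsp68 stood at 651 and 3.66 CPM in these libraries, against 111 and 14.8 CPM in GFP disks. The lysozyme gene LysB stood at 102 and 0.634 CPM in Nkd disks.

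With gene length offsets, 16 genes were called that were not called without, 5 higher and 11 lower. Argk1, the arginine kinase gene, stood at 1269 and 1397 CPM in GFP disks against 939 and 984 CPM in Nkd disks, with an offset value of -0.67 (adjusted p = 0.0116, edgeR). Polr1E, a subunit of RNA polymerase I, stood at 79.9 and 67.0 against 93.04 and 96.0 CPM, with an offset value of 0.64 (adjusted p = 0.0165). CG10936 had an offset value of -1.37, and unc-13, a synaptic vesicle priming gene on chromosome 4, had -0.71 with offsets and -0.01 without.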
